A study of Homo sapiens with 2 samples.

Results

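The cells described here are the 77 of 769 SP11-treated cells with the largest share of their RNA in S100A8, S100A9 and S100A12, called S100-high cells below. RNA was counted as UMIs, tags that each mark 1 captured RNA molecule. From the SP11 library, barcodes with at least 200 detected genes, at most 20% mitochondrially encoded UMIs and at least 4400 UMIs were taken, the UMIs of the 3 S100 genes were divided by all UMIs of the cell, and the top 10% of cells were kept. The other 692 cells of the same library are the comparison. The 3 S100 genes chose the cells, so their own values are a description, and the question addressed is which other genes differed between the S100-high cells and the rest of the library. The series holds 1940 barcodes in all, 864 of them from SP11.

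S100A8 and S100A9 are small calcium-binding proteins that pair to form calprotectin, a major cytosolic protein of neutrophils and monocytes. S100A12 is a related protein of the same cells. Released from activated or dying cells they act as alarmins, signals of tissue damage read by TLR4 and the receptor RAGE on other cells, and calprotectin also binds zinc and manganese. In the myeloid lineage their RNA is low in granulocyte precursors, which make azurophil granule proteins such as elastase, and high in later neutrophils and in monocytes.

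The 3 genes lie together on chromosome 1 within 33220 bases (GRCh38). S100A9 spans chr1:153357854-153361023 on the plus strand, S100A12 chr1:153373711-153375621 on the minus strand and S100A8 chr1:153390032-153391073 on the minus strand. The 250 bases before each transcription start are printed because these 3 genes define the cells described. They come from RefSeq on GRCh38.p14, 5′ to 3′ on the strand of the gene, and span chr1:153391074-153391323 for S100A8, chr1:153357604-153357853 for S100A9 and chr1:153375622-153375871 for S100A12. Capitals mark every match to the TATA box letters TATAAA and to the C/EBP letters TTNNGNAA, where N is any base.
S100A8: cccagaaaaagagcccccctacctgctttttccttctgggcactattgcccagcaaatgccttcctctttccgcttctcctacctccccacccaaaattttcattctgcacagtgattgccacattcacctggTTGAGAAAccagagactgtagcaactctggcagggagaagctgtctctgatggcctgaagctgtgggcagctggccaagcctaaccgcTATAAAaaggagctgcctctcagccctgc
S100A9: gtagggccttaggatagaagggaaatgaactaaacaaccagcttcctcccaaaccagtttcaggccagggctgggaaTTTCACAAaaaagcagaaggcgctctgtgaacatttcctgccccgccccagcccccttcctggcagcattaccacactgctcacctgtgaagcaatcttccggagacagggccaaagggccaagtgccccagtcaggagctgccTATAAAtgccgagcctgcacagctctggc
S100A12: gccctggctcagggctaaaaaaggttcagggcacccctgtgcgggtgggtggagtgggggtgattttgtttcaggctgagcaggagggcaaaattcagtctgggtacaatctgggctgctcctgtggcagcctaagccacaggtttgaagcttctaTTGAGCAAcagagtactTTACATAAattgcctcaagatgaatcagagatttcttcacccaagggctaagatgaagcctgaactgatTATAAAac

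Positions are counted back from the start site, with -1 for the base just before it, and a match is placed by its leftmost base. TATAAA was found 1 time in each window, at -29 for S100A8, at -29 for S100A9 and at -8 for S100A12. The letters TTNNGNAA, read on either strand, were found 1 time in S100A8, 1 time in S100A9 and 2 times in S100A12. C/EBP factors are regulators of granulocyte and monocyte genes. Of 34943 promoter windows of the same length, 10.8% held TATAAA and 33.2% held TTNNGNAA. The PU.1 core GAGGAA, in 23.6% of all windows, was found 1 time each in S100A8 and S100A9. The AP-1 letters TGANTCA (6.59% of windows), the NF-kB motif (54.4%) and the paired heat shock element GAANNTTC (5.80%) were each found 1 time in the S100A12 window and had no match in the other 2 windows. All motifs were searched on both strands, no 2 of the capitalised matches overlap, and a match is a match of letters only.

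The series compared untreated cells with cells given SP11, an HSP90 inhibitor, at 0.8 µM for 48 h. Both groups are labelled as MOLT4, a line from a T-cell acute lymphoblastic leukemia, and each group is 1 library, so nothing below has a replicate check. The study's methods mention replicates, but the labels give 1 library per group. The cell line label was checked against 31 T lineage genes: 25 of them, among them CD3D, CD3E, CD7 and TRAC, were at 0 in the S100-high cells, and 19 were at 0 in the other SP11 cells as well. The S100-high cells hold 1073939 UMIs and the other SP11 cells 8240804. Both libraries share 114 barcodes, and 3 S100-high cells carry a shared barcode. Without all shared barcodes 757 genes were higher and 1698 lower by the size set below, against 782 and 1659 with them, and the median log2 ratios were -0.54 for azurophil granule genes, 0.56 for iron genes and 1.65 for macrophage genes, against -0.46, 0.52 and 1.59.

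The S100-high cells were somewhat deeper than the others and alike in mitochondrial share. UMIs per S100-high cell ran from 4413 to 36589 with a median of 13228, against a median of 11014 and a range of 4435 to 47230 in the other cells. The median number of detected genes was 3674 in S100-high cells and 3566 in the others. Mitochondrially encoded UMIs had a median of 5.48% in S100-high cells and 5.65% in the others. A doublet caller marked 1 S100-high cell and 20 of the others.

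The S100 share fell off steeply among the chosen cells. It ran from 0.0393% to 1.49% of all UMIs with a median of 0.105%, or from 2 to 281 S100 UMIs per cell with a median of 12. The last 3 cells inside the limit had 0.0406%, 0.0406% and 0.0393% of UMIs (8, 3 and 4 UMIs), and the first 3 outside it had 0.0391%, 0.0390% and 0.0387% (4, 2 and 7 UMIs). The limit therefore lies within a continuous range and not at a gap. Among the other 692 cells, 420 (60.7%) had no S100 UMI at all and the highest count was 12. Summed over cells, the 3 genes reached 2658 CPM (UMIs per 1e+06 UMIs of the group) in the S100-high cells and 55.0 CPM in the others.

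**Figure D1:**
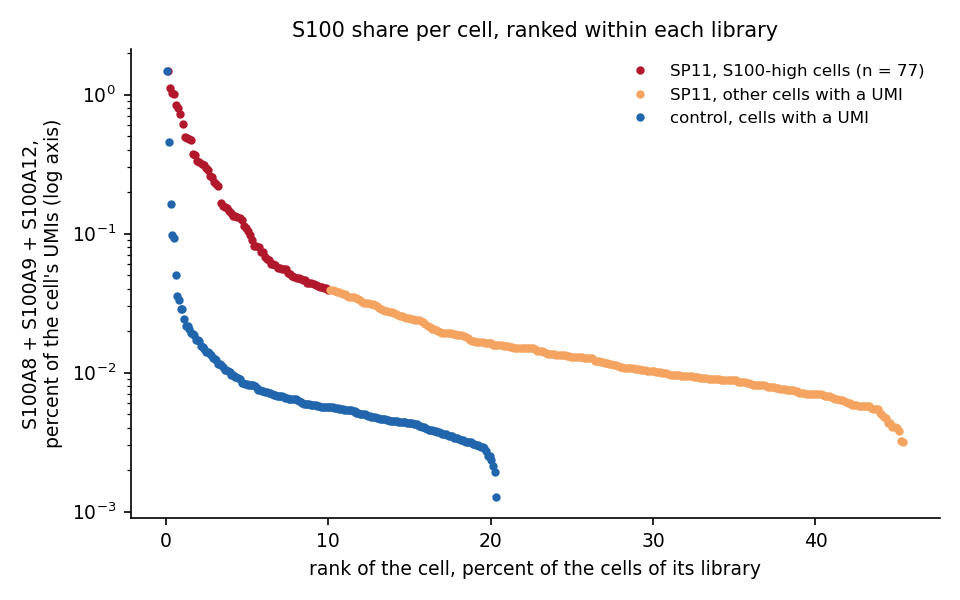
Share of UMIs from S100A8, S100A9 and S100A12 in each cell (percent, log axis) against the rank of the cell as a percent of its library, for SP11 and control cells passing the same filters. The 77 S100-high SP11 cells run from 1.49% down to 0.0393%, while only 6 control cells reach that lower limit.

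S100A8 stood at 1649 CPM in the S100-high cells, with a 95% Poisson interval of 1573 to 1728, and at 26.7 CPM (23.3 to 30.5) in the others. S100A9 stood at 963 CPM (905 to 1023) and 28.2 CPM (24.6 to 32.0). S100A12 had 50 UMIs in the S100-high cells and 1 UMI in the others. All 3 genes were found together in 20 S100-high cells and in none of the others, S100A8 with S100A9 but no S100A12 in 52 and 73 cells, S100A8 alone in 4 and 88, and S100A9 alone in 1 and 110. The S100-high cells held 89.0% of all S100A8 UMIs in the library, 81.7% of S100A9 and 98.0% of S100A12. The RNA was concentrated further within them, with 28.8% of the UMIs of the 3 genes in the top 5 cells and 64.7% in the top 20.

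The balance of both partners also differed. S100A8 gave 63.1% of the S100A8 and S100A9 UMIs in the S100-high cells (exact binomial 95% interval 61.3 to 64.9) and 48.7% (44.0 to 53.4) in the others. These values are a part of what chose the cells and carry no test. All intervals here and below cover counting error only. They do not measure differences between cells or cultures.

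Other S100 genes were higher in the S100-high cells. Below, a gene counts as measured with at least 50 UMIs over both groups, and as higher or lower when its CPM differed at least 1.5-fold, which is a size and not a test. Over the whole library 8.30% of 9419 measured genes were higher and 17.6% were lower, and the median log2 ratio (S100-high over other cells) was -0.15. Of 7 measured S100 genes outside the rule, 6 were higher and 1 was lower, with a median log2 ratio of 1.12. S100A4, a regulator of cell motility, stood at 1995 CPM (1912 to 2082) against 620 CPM (603 to 637), a log2 ratio of 1.69 (95% interval 1.61 to 1.76). Per 10000 UMIs, S100A4 had a median of 14.7 UMIs in the S100-high cells, in a range of 0 to 68.9, and a median of 5.61 in the others, in a range of 0 to 30.9. The cells overlap, but the middle of the S100-high cells lies above the upper quartile of the others.

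S100A6, S100A10 and S100A11, widely expressed family members that bind annexins, had log2 ratios of 1.12, 1.22 and 0.91. S100B, better known from glia, had 1.71 from 29 UMIs. S100P had 0.66. S100A13, which takes part in the release of growth factors without a signal peptide, had 6 UMIs in the S100-high cells and a log2 ratio of -0.72 with an interval of -2.21 to 0.47 that includes no difference. It was the lower gene of the 7. The remaining 10 genes of the list were not measured, and 8 of these were at 0 in the S100-high cells.

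Azurophil granule genes were lower in part, and lysozyme was higher. Of 20 azurophil and granulocyte precursor genes 13 were measured, 1 was higher, 4 were lower and 8 lay between, and the median log2 ratio was -0.46 beside -0.15 for all genes. CTSG, the granule protease cathepsin G, stood at 170 CPM (147 to 197) against 338 CPM (326 to 351), a log2 ratio of -0.99 (-1.21 to -0.77). ELANE, neutrophil elastase, stood at 272 against 504 CPM, and PRTN3, proteinase 3, at 55.9 against 104 CPM, each a log2 ratio of -0.89. MS4A3, a membrane protein of granulocyte and monocyte precursors, had 9 UMIs in 8 of the 77 cells and 492 UMIs in 322 of the 692 others, a log2 ratio of -2.83 (-3.97 to -1.90). AZU1, azurocidin, had -0.06 (-0.38 to 0.24), and SERPINB1, an inhibitor of the granule proteases, 0.16 (-0.03 to 0.34). Without the cells of cluster 5, a small cluster described further on, these were 0.23 (-0.10 to 0.55) and 0.28 (0.08 to 0.49).

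LYZ, lysozyme, is shared by granulocyte precursors, neutrophils, monocytes and macrophages. It stood at 1769 CPM (1691 to 1851) in the S100-high cells and 596 CPM (580 to 613) in the others, a log2 ratio of 1.57 (1.49 to 1.65). Per 10000 UMIs its median was 11.2 in the S100-high cells and 4.99 in the others, and the highest single value, 94.0, was in one of the other cells. Because of LYZ the sum of the list was almost the same in both groups, at 4948 and 5041 CPM. MPO, the defining enzyme of these granules, had 0 UMIs in the S100-high cells, which allows up to 2.79 CPM, and 5 UMIs in the others. The defensin genes DEFA1, DEFA3 and DEFA4 were at 0 in both groups.

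Genes of later granules and neutrophil maturation were mostly not measured. Of 23 genes 4 passed the count limit, 3 were higher and none lower, with a median log2 ratio of 1.38. MMP9, the gelatinase of tertiary granules and also a macrophage protease, had 55 UMIs in the S100-high and 40 UMIs in the other cells, 51.2 against 4.85 CPM and a log2 ratio of 3.40 (2.79 to 4.02). CHI3L1, a chitinase-like protein of specific granules and macrophages, had 2.01 (1.60 to 2.42). CXCR2, a chemokine receptor of neutrophils, had 0.75 (-0.20 to 1.60), and CSF3R, the receptor for granulocyte colony-stimulating factor, had 0.23 (-0.53 to 0.91). LTF, the lactoferrin of specific granules, had 1 UMI in each group, and LCN2, CEACAM6, OLFM4 and FCGR3B had none in either.

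Iron and heme genes were higher in part, with ferritin at the highest level and heme oxygenase at the largest ratio. Of 25 measured genes of iron handling, heme breakdown and the NRF2 response, 11 were higher, 2 lower and 12 between, with a median log2 ratio of 0.52. FTH1, the ferritin heavy chain that oxidises and stores iron, stood at 12331 CPM (12122 to 12543) against 2525 CPM (2491 to 2560), a log2 ratio of 2.29 (2.26 to 2.32). Per 10000 UMIs its median was 67.6 in the S100-high cells, from 2.71 to 582, and 16.5 in the others, from 0 to 304. The lower quartile of the S100-high cells, 39.3, lies above the upper quartile of the others, 30.9. Processed copies of FTH1 elsewhere in the genome can share its reads, so its exact count is uncertain.

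FTL, the ferritin light chain, had a log2 ratio of 1.07 (1.05 to 1.08). HMOX1, heme oxygenase, which releases iron from heme, had 104 UMIs in the S100-high and 108 in the other cells, 96.8 against 13.1 CPM and a log2 ratio of 2.89 (2.48 to 3.29). One S100-high cell held 26.9% of its UMIs, and without that cell the ratio was 2.45. SLC7A11, the cystine importer, had 1.81, NQO1, a quinone reductase, 1.45, and the biliverdin reductase BLVRB 0.96. TFRC, the transferrin receptor that imports iron, had a log2 ratio of -0.66 (-1.07 to -0.27), and KEAP1, the inhibitor of NRF2, -0.68 (-1.19 to -0.20). NFE2L2, which encodes NRF2, had 0.27, and BACH1, a repressor of HMOX1, had 0.04.

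Most measured monocyte and macrophage genes were higher in the S100-high cells, with none lower. Of 16 measured genes of a list of 35, 11 were higher, and the median log2 ratio was 1.59. TYROBP, the adaptor of activating myeloid receptors also called DAP12, had 439 UMIs in the S100-high cells and 363 in the others, 409 CPM (371 to 449) against 44.0 CPM (39.6 to 48.8), a log2 ratio of 3.21 (3.01 to 3.42). It was found in 59 of 77 S100-high cells and in 249 of 692 others. After each cell was thinned to 4400 UMIs, 54.5% of S100-high cells (42.8 to 65.9) and 17.2% of the others (14.5 to 20.2) had a TYROBP UMI, against 76.6% and 36.0% before thinning. No cell type known to lack these genes was present to measure the share given by free RNA.

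FCN1, a lectin of classical monocytes, had a log2 ratio of 2.89 (2.34 to 3.44). FCER1G, an adaptor of Fc receptors, had 1.94, IFI30, a lysosomal thiol reductase, 1.98, and CD68, a lysosomal membrane protein, 2.44. C1QA, a chain of complement C1q, had 4.41, but 40% of its 50 UMIs lay in one cell, and the ratio was 3.70 without it. AIF1 had 0.33 and LILRB1 0.03. Defining surface markers were sparse. CD14 had 12 UMIs in the S100-high cells and 3 in the others, and CSF1R had 13 and 9. C1QB, MRC1, VCAN and VSIG4 had none in either group.

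**Figure D2:**
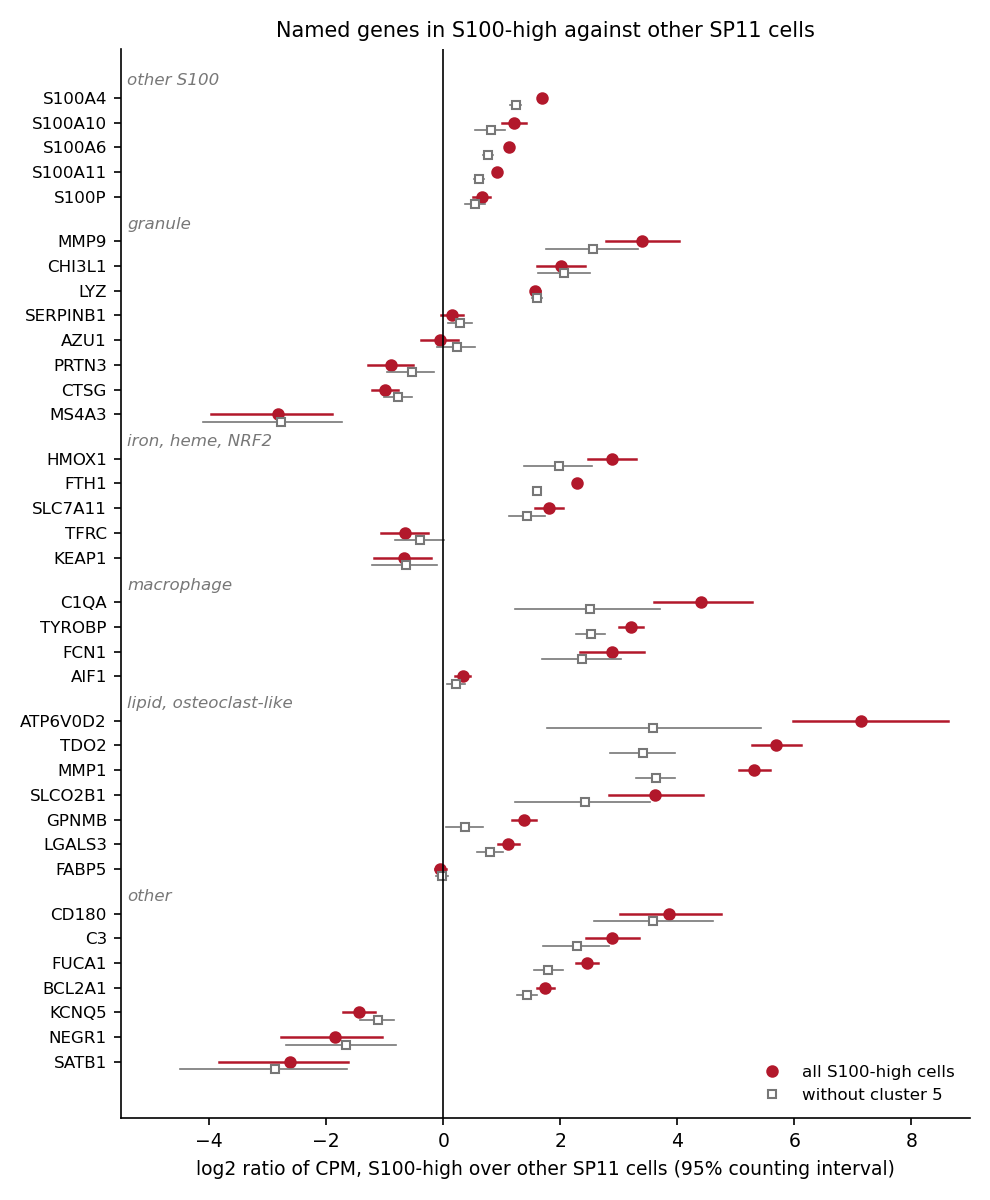
Log2 ratio of CPM in S100-high over other SP11 cells for named genes, with 95% counting intervals, for all 77 S100-high cells (filled) and for the 59 outside cluster 5 (open). ATP6V0D2 goes from 7.15 to 3.58 and GPNMB from 1.38 to 0.37 between the fillings, while LYZ (1.57 and 1.61) and MS4A3 (-2.83 and -2.78) stay in place.

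Genes of lipid-handling and osteoclast-like macrophages showed the largest ratios outside the rule genes. Of 27 genes 11 were measured, 10 were higher and none was lower, with a median log2 ratio of 1.87. ATP6V0D2, a proton pump subunit of osteoclasts and macrophages, had 111 UMIs in the S100-high and 6 in the other cells, 103 against 0.728 CPM and a log2 ratio of 7.15 (5.98 to 8.63). TDO2, which degrades tryptophan, had 5.69 (5.28 to 6.12), with 30.6% of its UMIs in one S100-high cell and a ratio of 5.18 without it. MMP1, the interstitial collagenase, stood at 690 CPM (641 to 742) against 17.4 CPM (14.6 to 20.4), a log2 ratio of 5.31 (5.05 to 5.58). It was found in 34 S100-high cells and in 51 others, so that 43 S100-high cells had none. The organic anion transporter SLCO2B1 had 3.63, the scavenger receptor CD36 1.98, the lipid droplet protein PLIN2 1.51, and GPNMB, a glycoprotein of lysosome-rich macrophages, 1.38. FABP5, a fatty acid carrier, had -0.05. ATP6V0D2, TDO2 and SLCO2B1 are also among the genes that the study named for a cluster of treated cells. The counts and the median of this list are therefore no independent evidence of a direction.

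The remaining genes with the highest lower bounds came from several functions. CD180, a homologue of the Toll-like receptors, had 36 UMIs in 24 of the 77 cells and 19 UMIs in 16 of the 692 others, a log2 ratio of 3.86 (3.02 to 4.75). VWA5A had 3.50 (2.70 to 4.33), the membrane protein TM4SF19, known from osteoclasts, 3.19 (2.39 to 4.00) and the extracellular matrix protein OLFML2B 3.10 (2.27 to 3.94), each from 28 to 34 UMIs. Without the cells of cluster 5, VWA5A had 1.64 (0.18 to 2.91) and TM4SF19 1.98 (0.76 to 3.08). OLFML2B then had 1.30 (-0.28 to 2.62) from 6 UMIs, an interval that includes no difference. OTOA, known from the inner ear, stood at 82.9 against 11.3 CPM (2.88, 2.44 to 3.31), and C3, the central complement component, at 78.2 against 10.6 CPM (2.89, 2.44 to 3.34). In control cells chosen by the same rule OTOA had -0.11 (-1.16 to 0.78) and C3 3.45 (2.74 to 4.17).

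Lysosome genes were higher in part, to a lesser degree. Of 25 measured genes 14 were higher and none lower, with a median log2 ratio of 0.64. The proteases CTSH and CTSA had 1.40 and 1.33, and GRN and PSAP, which encode the lysosomal proteins progranulin and prosaposin, had 1.42 and 1.35. LAMP1, a membrane protein of all lysosomes, had -0.35. FUCA1, a lysosomal fucosidase outside the list, had 2.46 (2.27 to 2.65).

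Receptors of S100A8 and S100A9 and the NADPH oxidase, which calprotectin helps to activate by carrying arachidonic acid to it, were higher in part. Of 13 measured genes 7 were higher and none lower, with a median log2 ratio of 0.61. NCF1, the oxidase organiser p47phox, had 2.37 (2.12 to 2.62), and its reads can be shared with near-identical pseudogenes. The membrane subunits CYBB and CYBA had 1.13 and 0.91. The receptor TLR4 had 0.61 (0.00 to 1.17), and the receptors CD33 and BSG had 0.03 and -0.19.

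Among 10 measured chemokines and cytokines, 6 were higher and 1 was lower, with a median log2 ratio of 1.45. CCL3, CXCL8 and CCL2, which attract monocytes and neutrophils, had 2.69, 1.66 and 1.58. CXCL10 rested on 1 cell, which held 95% of its 40 UMIs, and its ratio of 3.87 became -0.42 without that cell. TGFB1 had -0.62 (-1.33 to 0.03). Of 10 measured interferon-stimulated genes 5 were higher and none lower, with a median of 0.74. IFI6 stood at 213 against 53.2 CPM and ISG15 at 150 against 49.3 CPM. ISG15 had 22.4% of its UMIs in 1 S100-high cell, and its log2 ratio went from 1.61 to 1.28 without that cell. IFIT3, at 3.58, had 69.2% of its UMIs in 1 cell and 1.92 without it. Of 14 measured NF-kB target genes 5 were higher and none lower, with a median of 0.09. SOD2, the mitochondrial superoxide dismutase, had 1.59 and NFKB1 itself -0.44.

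Class I antigen presentation genes were higher in part. Of 12 measured genes 5 were higher and none lower, with a median log2 ratio of 0.37. B2M, the shared light chain, stood at 1683 CPM against 835 CPM, a ratio of 1.01 (0.94 to 1.09), and HLA-B had 0.96 (0.82 to 1.09). The immunoproteasome subunit PSMB8 had 0.04 and the peptide transporter subunit TAP2 0.00. Of 16 measured BCL2 family and caspase genes 5 were higher and 3 lower, with a median of 0.13. The share of lower genes was near the 17.6% of all measured genes. BCL2A1, a survival protein of myeloid cells, had 1.74 (1.60 to 1.89), and BCL2 had -0.83 (-1.47 to -0.26) from 26 UMIs. Without the cells of cluster 5, BCL2A1 had 1.44 (1.26 to 1.61). BCL2 then had -0.47 (-1.12 to 0.11), an interval that includes no difference.

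Myeloid transcription factors moved in both directions, with a share of lower genes near the 17.6% of all measured genes. Of 23 measured genes 6 were higher and 4 lower, the median log2 ratio was -0.03 and the ratio of the summed CPM 0.03. Those higher included MITF (1.61, 1.10 to 2.09), a regulator of lysosome and osteoclast genes, and KLF6 (1.26). For 4 factors of myeloid differentiation the interval included no difference. SPI1, which encodes PU.1, had -0.03 (-0.63 to 0.52), CEBPA -0.19 (-0.49 to 0.11), CEBPB 0.14 (-0.32 to 0.56) and CEBPE -0.37 (-1.11 to 0.30). MYB, which maintains immature blood cells, had -0.76 (-1.01 to -0.52), and GFI1, a repressor in granulocyte precursors, had -0.77 (-1.38 to -0.21).

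Genes lower in the S100-high cells outnumbered those higher, 1659 against 782, but with no minimum of UMIs per gene the balance turned, to 2327 lower against 2641 higher. The 10 taken by the lowest upper bound of the interval included SATB1, a chromatin organiser, with 8 UMIs in 7 of 77 cells and 376 UMIs in 225 of 692 others, 7.45 against 45.6 CPM and a log2 ratio of -2.61 (-3.84 to -1.62). Its antisense RNA SATB1-AS1 had 1 UMI against 164. Counting without regard to strand cannot tell overlapping antisense genes apart, and the setting used is not stated in the sources at hand. KAZN, a protein of cell junctions, had 2 UMIs against 204 (-3.73, -6.79 to -1.86), MOGS, the first glucosidase of glycoprotein trimming, 2 against 196 (-3.67, -6.73 to -1.80), and UAP1, an enzyme of UDP-GlcNAc synthesis, 2 against 173 (-3.49, -6.55 to -1.62). TYRO3, a receptor kinase for GAS6, had -2.14, the adhesion protein NEGR1 -1.84 and the potassium channel KCNQ5 -1.43. LAMP5, a membrane protein of plasmacytoid dendritic cells and neurons, had -1.76. MS4A3, described above, is also among the 10. Outside the 10, the G2/M list gene RANGAP1, which acts in nuclear transport, had -1.56.

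KCNQ5 gives the clearest of these by depth. It had 112 UMIs against 2320, or 104 CPM (85.9 to 125) against 282 CPM (270 to 293). After thinning to 4400 UMIs, 32.5% of S100-high cells (22.2 to 44.1) and 62.3% of the others (58.6 to 65.9) had a KCNQ5 UMI, against 50.6% and 82.8% before thinning. Over 5 equal groups of genes by span, with median spans from 6258 to 163635 bases, the median log2 ratio was -0.08 for the shortest genes, -0.20 for the fourth group and -0.16 for the longest. The share of lower genes was 15.1%, 20.3% and 17.4% in these groups, and the low genes above range from 4354 bases (MOGS) to 1225252 bases (KAZN).

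Heat shock genes, of interest with an HSP90 inhibitor, were near the other cells. Of 21 measured genes 1 was higher and 2 lower, with a median log2 ratio of -0.24. HSP90AA1 and HSP90AB1, the drug's target chaperones, had -0.21 (-0.28 to -0.14) and -0.24 (-0.28 to -0.19). FKBP4, a co-chaperone of HSP90, had -1.07 (-1.43 to -0.72). HSPA1A, whose reads can be shared with HSPA1B, had 0.78 from 13 UMIs, with an interval of -0.21 to 1.67.

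Metallothionein and zinc genes had a median log2 ratio of -0.38, with 5 of 11 lower and none higher, but a ratio of summed CPM of 0.03. MT2A had 0.32 (0.23 to 0.42), and 0.06 without the cell that held the most of its UMIs. The metallothionein MT1F had 0.44 (0.11 to 0.76). The zinc transporters SLC39A10 and SLC30A5, also in the list, had -0.78 (-1.52 to -0.13) and -0.79 (-1.44 to -0.20). The metallothionein genes are near-identical copies, so reads may be split among them. Of 18 cholesterol synthesis genes none was higher and 5 were lower, with a median of -0.25, and IDI1, an isomerase of the pathway, had -1.21. Of 20 glycolysis and hypoxia genes none was higher and 1 was lower, with a median of -0.05. Of 43 S phase genes none was higher and 3 were lower (median -0.16), and of 54 G2/M genes 1 was higher and 10 were lower (median -0.39). Over all measured genes 8.30% were higher and 17.6% lower, so the share of lower G2/M genes was near that of the library. CDC20, an activator of the exit from mitosis, had -1.17 (-1.49 to -0.86).

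Gene sets that the study itself singled out on these libraries are no independent evidence of a direction. All 6 measured genes that it named for a cluster of treated cells were higher (median 2.96), and of 10 measured regulators it discussed none was higher and 3 were lower (median -0.51), among them MYC at -0.58 (-0.98 to -0.21) and BMI1 at -0.84 (-1.21 to -0.48).

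**Figure D3:**
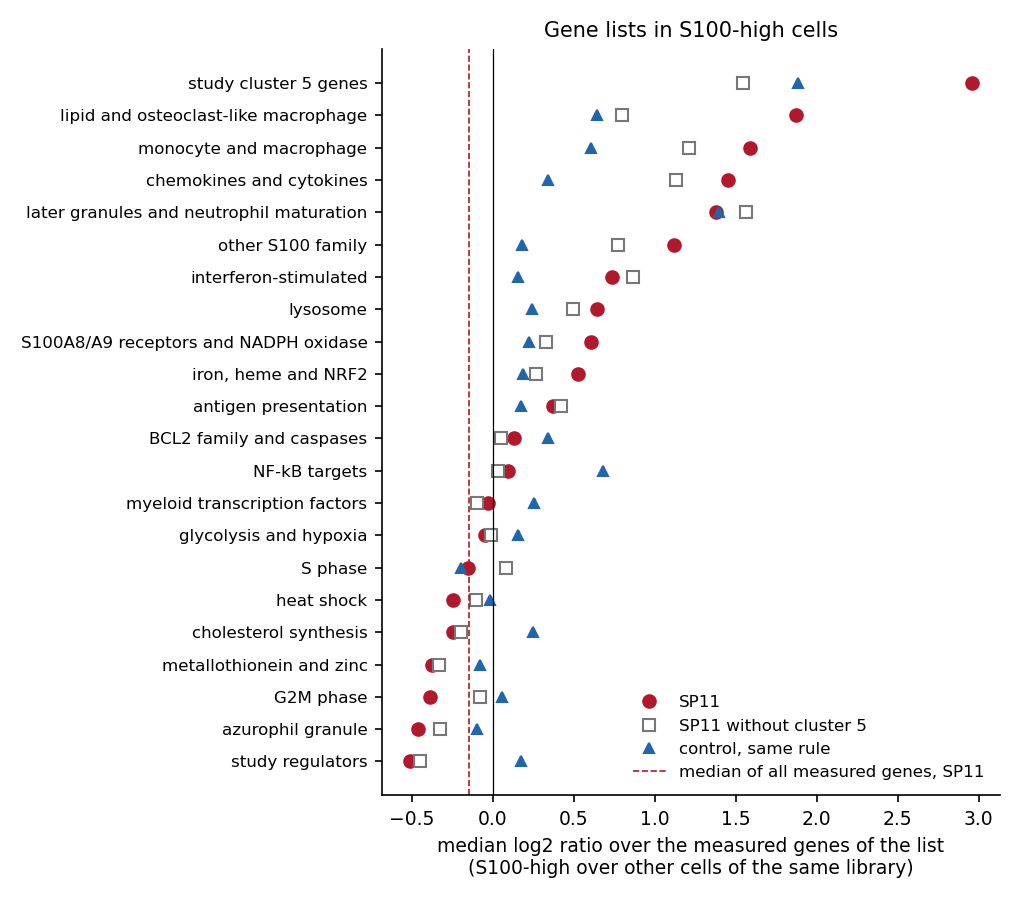
Median log2 ratio (chosen over other cells) of each gene list for SP11, for SP11 without cluster 5 and for control cells chosen by the same rule. The macrophage list stands at 1.59, 1.21 and 0.60 and the azurophil list at -0.46, -0.32 and -0.10.

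Markers of other cell types were mostly at 0. Of the 31 T lineage genes only LAT was measured, with 18 and 51 UMIs, and the summed level was 32.6 CPM in the S100-high cells (22.7 to 45.3) and 9.71 CPM in the others (7.70 to 12.1). In B cell genes the summed level was 38.2 and 26.8 CPM, with 8 of 12 at 0 in the S100-high cells, MS4A1 and CD79A among them. NK cell genes stood at 353 and 216 CPM, nearly all NKG7, with GNLY, GZMB and PRF1 at 0. Erythroid genes stood at 3.72 and 5.46 CPM, and all 9 dendritic cell genes were at 0 in both groups. Megakaryocyte genes gave 9 UMIs, all of PPBP and all in 1 S100-high cell, against 12 UMIs in the others. Mast cell genes stood at 116 and 88.0 CPM, with TPSAB1 at 115 and 86.2, keratinocyte and epithelial genes at 147 and 104 CPM, nearly all KRT10, and fibroblast and endothelial genes at 63.3 and 41.1 CPM, nearly all PECAM1. The part of these markers in the results above was not tested.

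The S100-high cells were spread over all clusters of the library, with a concentration in the smallest. Clustering of the kept SP11 cells gave 6 clusters, and cluster 5 was led by ATP6V0D2, SLC26A11, TDO2, MMP1, S100A12, C1QA, FABP4, FMN1, S100A9 and SLCO2B1. It held 18 S100-high cells among its 19 cells with at least 4400 UMIs. Clusters 0 to 4 held 25, 7, 7, 16 and 4, so 59 of the 77 lay outside cluster 5. With the 3 rule genes taken out of the clustering features, the corresponding cluster held 17 S100-high cells among 18. Cluster 3, led by histone genes, held 16 of 107, and cluster 1, with PIF1, UBE2C and TOP2A among its leading genes, held 7 of 183. Cluster 4, with MMP1, SERPINB2 and FTH1 among its leading genes, held 4 of 10, the highest share after cluster 5 (40%). Only 10 of its 70 cells reached 4400 UMIs, and the median over all 70 was 1826 UMIs.

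Outside cluster 5 most of the differences were smaller and kept their direction. Of 122 named genes 115 kept the sign of their log2 ratio, 87 of them with a ratio nearer to 0. In the 59 remaining S100-high cells 611 of 9349 genes were higher (6.54%) and 1510 lower (16.2%), with a median log2 ratio of -0.12. The median of the macrophage list was 1.21, of the iron list 0.27, of the other S100 genes 0.77 and of the azurophil list -0.32, the last with a ratio of summed CPM of 0.10. TYROBP had 2.52 (2.26 to 2.77), FTH1 1.61 (1.57 to 1.65), MMP1 3.63 (3.30 to 3.96) and CD180 3.59 (2.58 to 4.61), against 3.86 in all S100-high cells. LYZ had 1.61 (1.52 to 1.69). Interferon-stimulated genes had a median of 0.87, later granule genes 1.56, lysosome genes 0.50 and lipid and osteoclast-like genes 0.80.

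Set side by side, the S100-high cells in and out of cluster 5 differed in most groups. FTH1 stood at 26198 CPM in the 18 cells of cluster 5, 7679 CPM in the 59 outside it and 2518 CPM in the other cells outside cluster 5. TYROBP stood at 875, 252 and 44.1 CPM, and MMP1 at 2105, 215 and 17.4 CPM. LYZ did not follow this order, with 1623, 1818 and 596 CPM. CTSG stood at 85.2, 199 and 338 CPM, so that the outside cells lay between. MT2A stood at 137, 1288 and 800 CPM. These clusters were made from the same genes, so the values are a description.

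Cell cycle genes divided the S100-high cells by cluster. The G2/M genes summed to 2035 CPM in cluster 5, 6530 CPM in the S100-high cells outside it and 6732 CPM in the other cells, and the S phase genes to 1724, 4997 and 4446 CPM. RRM2, the ribonucleotide reductase subunit of S phase, stood at 107, 658 and 387 CPM, and PCNA, the sliding clamp of replication, at 107, 438 and 288 CPM. Outside cluster 5 the median log2 ratio was 0.08 for the S phase list and -0.08 for the G2/M list. S100A8 gave 59.4% (56.8 to 61.9) of the S100A8 and S100A9 UMIs in cluster 5 and 67.4% (64.8 to 70.0) in the S100-high cells outside it.

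**Figure D4:**
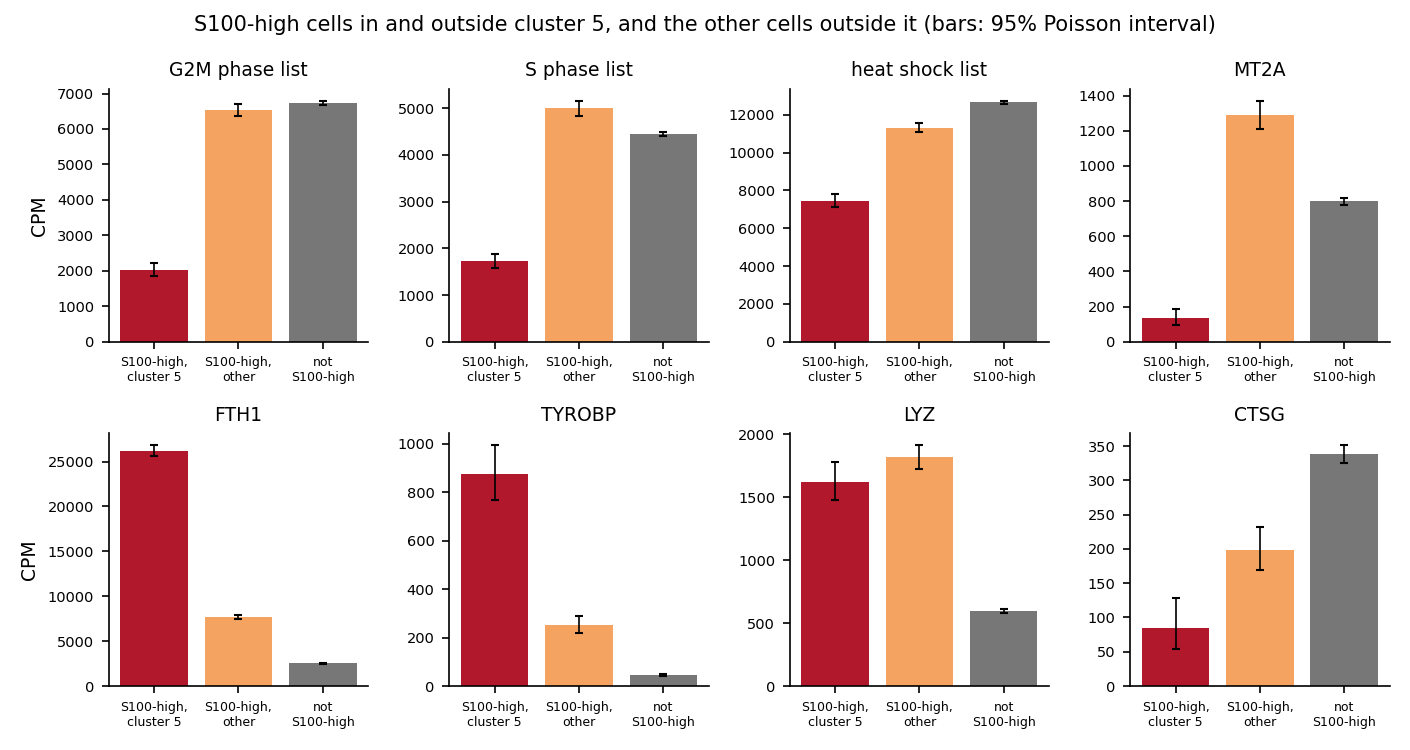
CPM (bars, from 0) with 95% Poisson intervals of 4 lists or genes in each row in S100-high cells of cluster 5, S100-high cells outside it and other SP11 cells outside it. FTH1 and TYROBP are highest in the cells of cluster 5, LYZ is highest in the S100-high cells outside it, and the G2/M and S phase lists are lowest in cluster 5.

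Some differences lay almost wholly in the S100-high cells and others went on below the limit. Cells were ordered by S100 share into 10 bins of 76 or 77 cells, of which the highest is the S100-high cells. MMP1 stood at 690, 85.7 and 7.08 CPM in the first 3 bins and between 4.39 and 17.4 CPM in the others. TYROBP stood at 409 CPM in the highest bin, 63.1 and 59.0 CPM in the following 2 and between 30.1 and 46.7 CPM in the rest. FTH1 stood at 12331, 4558 and 2908 CPM, then between 1820 and 2540 CPM. NCF1 stood at 204, 105 and 50.8 CPM, then between 19.8 and 41.7 CPM. Cells from bin 6 to bin 10 all have no S100 UMI, so the order among these bins carries no information.

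SATB1 and LYZ changed over more of the range. SATB1 stood at 7.45, 15.5, 31.9, 38.7 and 34.2 CPM in the first 5 bins and between 49.4 and 70.2 CPM in the bins without an S100 UMI. LYZ stood at 1769, 809, 702, 711 and 525 CPM and then between 460 and 565 CPM. MS4A3 stood at 8.38 CPM in the highest bin, 41.6 CPM in the following one and between 50.9 and 76.9 CPM in the rest. CTSG stood at 170, 281 and 276 CPM and then between 308 and 393 CPM. The bins also differed in depth, with median UMIs per cell from 9208 in bin 3 to 15667 in bin 5, and the part of depth in these trends was not tested.

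**Figure D5:**
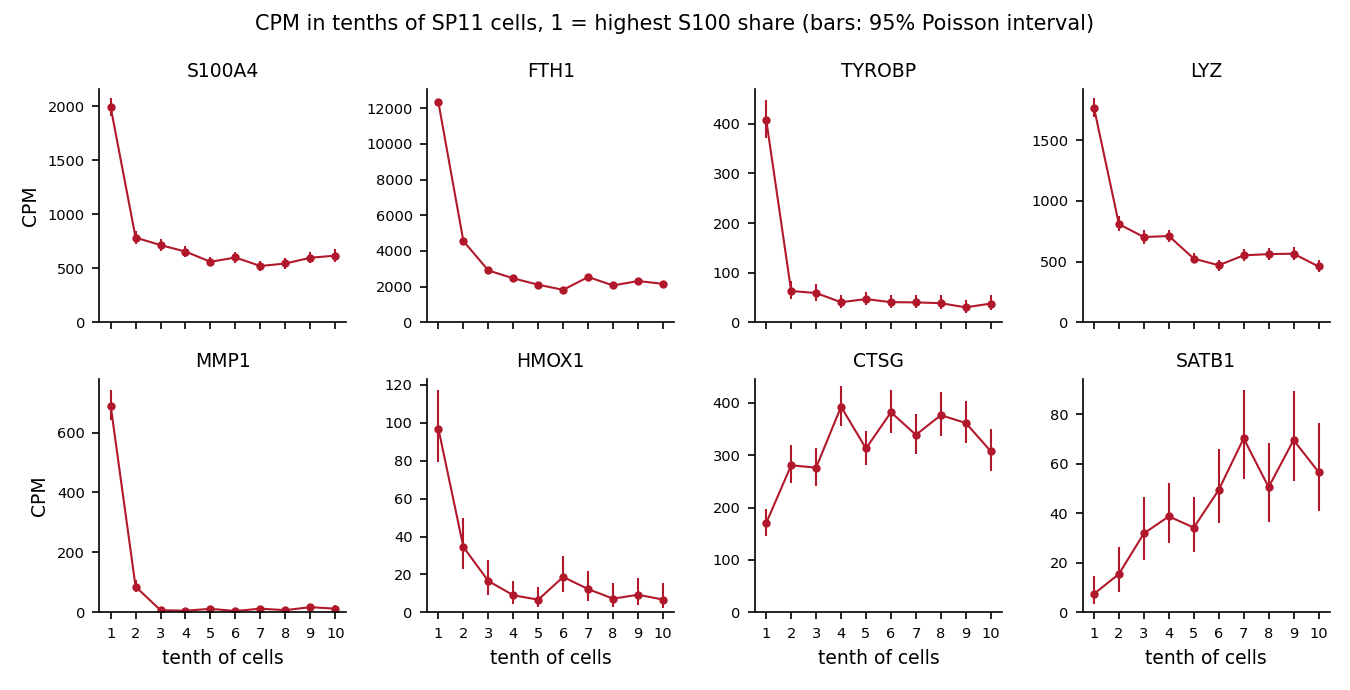
CPM with 95% Poisson intervals of 8 genes in 10 bins of SP11 cells ordered by S100 share, with the S100-high cells as bin 1. MMP1 drops from 690 to 7.08 CPM by bin 3, while SATB1 climbs from 7.45 CPM in bin 1 to 31.9 CPM in bin 3.

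The S100-high cells also differed among themselves. Split by S100 share into 26, 26 and 25 cells, FTH1 stood at 19805, 7562 and 6403 CPM, TYROBP at 721, 220 and 148 CPM and MMP1 at 1500, 187 and 29.5 CPM. HMOX1 stood at 151, 97.6 and 7.38 CPM, the last from 2 UMIs with an interval of 0.893 to 26.6 CPM that includes the 13.1 CPM of the cells outside the group. LYZ stood at 2063, 1614 and 1494 CPM and changed less than FTH1, TYROBP, MMP1 and HMOX1. CTSG went the other way, at 90.1, 198 and 266 CPM. SATB1 was low throughout, at 6.76, 8.36 and 7.38 CPM. Cluster 5 gave 16, 2 and 0 of the cells, and the median depth was 16300.5, 12336 and 9226 UMIs per cell.

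Cells high in S100 RNA were often high in other groups too. Of the S100-high cells 58.4% were in the top 10% of the library by the summed share of macrophage genes, against 4.62% of the other cells. The values were 54.5% and 5.06% for iron genes, 54.5% and 5.06% for antigen presentation genes, and 41.6% and 6.50% for lipid and osteoclast-like genes. For azurophil genes they were 16.9% and 9.25%, although the list had a negative median, and for heat shock genes 6.49% and 10.4%. These shares share depth and cells with the S100 measure and are given without a test.

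The same rule applied to the control library took 96 of 963 cells, but at a far lower S100 level. The limit there was 0.00567% of UMIs, 43 of the 96 cells were chosen on a single S100 UMI, and 6 cells (0.623%) reached the SP11 limit. An S100 UMI was found in 45.4% of SP11 cells and 20.4% of control cells, whose median depths were larger, 17018.5 UMIs in the chosen and 18548 in the other cells. The 3 genes summed to 355 CPM over the SP11 cells and 32.9 CPM over the control cells, or 23.3 CPM without 1 control cell that held 29.3% of the control UMIs of these genes. With 1 library a group this difference has no replicate check.

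In the chosen control cells 578 of 11596 measured genes (4.98%) were higher and 629 (5.42%) were lower, with a median log2 ratio of 0.01. FTH1 stood at 3289 CPM against 649 CPM, a log2 ratio of 2.34 (2.30 to 2.39), beside 2.29 in SP11. MMP1 had 8.14 (7.62 to 8.70), with 34.9% of its UMIs in the chosen cells held by 1 cell. MMP9 had 4.73 (3.18 to 6.56), from only 14 against 5 UMIs, too few to count as measured. LYZ had 1.00 (0.89 to 1.11), and TYROBP had 1.15 (0.78 to 1.51), or 0.94 without the control cell of highest S100 share. Of 17 measured macrophage genes 9 were higher and 1 lower (median 0.60), of 14 azurophil genes 2 were higher and 1 lower (median -0.10), and of 24 iron genes 4 were higher and 1 lower (median 0.18). Ferritin and the collagenase thus had ratios as large in control as in SP11, while the medians of all 3 lists were nearer to 0 in control.

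Several differences had no counterpart of that size in control. HMOX1, with 3 UMIs in the chosen and 24 in the other cells, had 0.25 (-2.13 to 1.97), S100A4 had 0.33 (0.24 to 0.42), SATB1 -0.23 (-0.51 to 0.04) and MS4A3 -0.60 (-1.11 to -0.12). NF-kB target genes had a median of 0.68 in control with 8 of 13 higher, beside 0.09 in SP11. The control cells were chosen on far fewer S100 UMIs, and the difference between libraries was not tested.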

How the data were processed

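Single-cell RNA was measured in 2 libraries, 1 per group, grouped by the treatment label. For each library the authors deposited a matrix of raw UMI counts per gene and barcode, made with Cell Ranger 7.1.0 per the file headers on GRCh38 (hg38), without normalization. Counting of intronic reads, strand and removal of free RNA are not given in the sources used here.

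Cells were filtered as described above. UMIs were summed over the cells of each group and divided by the group's total UMIs, given per 1e+06 UMIs (CPM). A CPM carries an exact Poisson interval, a log2 ratio a Clopper-Pearson interval for how the gene's UMIs divide between both groups, and a share of cells the Clopper-Pearson interval too, all exact. With 0 UMIs the limit is 3 counts of the group's total. A list's median is over its measured genes. Both groups are cells of 1 library, so no test was made. Totals were 1073939 UMIs in S100-high cells and 8240804 in the others. Clusters came from Seurat 5.3.0 in R 4.3.3 (log-normalization to 10000, 2000 variable features, 10 principal components, resolution 0.5), and doublets from Scrublet in scanpy 1.11.5, which marked 21 of 852 kept SP11 cells, all retained. Python 3.11.15 with scipy 1.17.1 gave all intervals, and the ratio code was tested on simulated data.

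Named genes are the 3 rule genes and the measured S100 genes, then, leaving out genes with over 25% of their UMIs in 1 cell, the 15 with the highest lower bound and the 10 with the lowest upper bound, then up to 3 members from each end of the granule, iron and macrophage lists and up to 2 from each end of the other lists. Further list members are named beside their list and were chosen after their values were seen. Some genes that this rule names are not reported here. The cells, gene lists and rules were chosen with earlier results of these data known.

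Alternatives were other shares of cells, UMI, mitochondrial and count minimums, thinning to 4400 UMIs, choosing cells on a random part of each cell's UMIs and measuring on the remaining part, equal weight per cell, TMM factors (edgeR 4.0.16), DESeq2 1.42.0 size factors, S100A8 or S100A9 alone, and leaving out doublets, the top 5 cells or cluster 5. Leaving out shared barcodes, the highest 26 of the S100-high cells, or a gene's top cell was added after seeing the data.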

Additional observations from a re-analysis of the deposited data

Results flagged for a closer look

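Several named genes lay on opposite sides of 0 in the SP11 and control libraries, with counting intervals that exclude 0 in both. KAZN had a log2 ratio of -3.73 in SP11, from 2 UMIs in the S100-high cells, and 0.41 in control. RRM2 had 0.43 in SP11 and -0.17 in control. IDI1 had -1.21 in SP11 and 0.25 in control. KEAP1 had -0.68 in SP11 and 0.36 in control. With 1 library per group the difference between libraries was not tested, and the control cells were chosen at a far lower S100 level.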

How the results depend on the processing

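No paired analysis was possible because each group is 1 library. The medians of the azurophil, iron and macrophage lists each kept their sign under all 21 alternatives, while the balance of higher and lower genes turned under 1 of them. Over these, azurophil ran from -0.65 to -0.30, iron from 0.16 to 0.75, macrophage from 1.03 to 2.44, higher genes from 503 to 2641 and lower genes from 806 to 2327. With the top 5% of cells azurophil was -0.65 and iron 0.75. With the top 20%, 511 genes were higher and 806 lower, and azurophil, iron and macrophage were -0.31, 0.26 and 1.22. Without cluster 5 these were -0.32, 0.27 and 1.21, and without the highest 26 cells -0.30, 0.16 and 1.03. Azurophil was -0.55 with no UMI minimum, -0.39 with cells chosen on S100A9 alone and -0.54 without shared barcodes. Iron was 0.35 after thinning. A minimum of 100 UMIs per gene left 503 higher genes. With no minimum 2641 were higher and 2327 lower, which turns the balance to 53.2% higher from 32.0%, and macrophage was 2.44. That setting adds genes with few UMIs, where 1 UMI in the smaller S100-high group can make a gene higher. TMM and DESeq2 factors shifted all log2 ratios by 0.06 and gave 39.7% and 38.9% higher. Of 2684 values of named genes under an alternative, 93 had another sign than the value reported. In 83 of these the reported ratio was under 1.5-fold with an interval that included 0. The other 10 follow. MT2A was -0.025 in the top 5%, -0.10 on S100A8 alone and -0.0086 on S100A9 alone. With cells chosen on 1 part of the UMIs and measured on the other, SLC2A1 was 0.072, CDC25C 0.55 and MT1F -0.16. ANLN was -0.13 after thinning, S100A13 0.11 on S100A9 alone, and CXCL10 -0.33 without the top 5 cells and -0.42 without its top cell. The causes were not tested. Genes with 1 to 3 UMIs in the S100-high cells have wide intervals, and 77 cells of 1 library limit every value.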
